A study of Mus musculus with 6 samples.

Results

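Colony-stimulating factors and their receptors were examined in the hippocampus of 6-month-old 5xFAD and WT mice by RNA-seq. The set was chosen by gene name and held 6 of the 18263 protein-coding genes of the count table, namely 2 ligand genes (Csf1 and Il34) and 4 receptor genes (Csf1r, Csf2ra, Csf2rb and Csf3r). The RNA had been depleted of rRNA, and 3 libraries were sequenced per genotype. 5xFAD mice carry mutant human transgenes, APP among them, driven by the Thy1 promoter, which acts mainly in neurons, and they deposit amyloid-beta. The WT mice were littermates without the transgenes, and the mice of both groups were 6 months old.

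Macrophage colony-stimulating factor (CSF1) and interleukin 34 bind the same receptor, the tyrosine kinase CSF1R, and microglia, the macrophages of the brain, depend on it for survival and division. In the forebrain IL-34 comes mainly from neurons and CSF1 mainly from glia. CSF2RA is the ligand-binding chain of the receptor for granulocyte-macrophage colony-stimulating factor (GM-CSF), and CSF2RB is the signalling chain that this receptor shares with those for interleukins 3 and 5. CSF3R is the receptor for granulocyte colony-stimulating factor and is best known from neutrophils.

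Libraries held 8.45 to 12.6 M counts in 5xFAD and 8.7 to 12.1 M in WT. Levels are given as counts per M of the scaled library (CPM). A log2 difference is the 5xFAD value less the WT value, with a standard error (SE) and a 95% interval. WT replicate 3 stood apart. Across genes, its log2 deviations were related to transcript GC content with a Spearman's correlation of -0.62, while for the remaining libraries this value lay between -0.06 and 0.06. Results that rest on it are therefore given with and without it. As a check of the labels, Thy1, whose promoter drives the transgenes, had 2420 to 2700 CPM in 5xFAD libraries, against 362 to 637 CPM in WT libraries (log2 difference 2.26, edgeR adjusted p = 0.00874). App, the mouse counterpart of one of the transgenes, had 2740 to 2920 CPM in 5xFAD and 2020 to 2930 CPM in WT (log2 difference 0.12, edgeR adjusted p = 0.907).

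The first comparison asked how abundant the members were. Levels of different genes were compared only per kilobase of exon. In 5xFAD hippocampus the order was Csf1 (12.1 ± 2.58 CPM per kb, SD, n = 3), Csf2ra (9.35 ± 0.397), Il34 (7.09 ± 1.12), Csf2rb (0.987 ± 0.154), Csf3r (0.31 ± 0.195) and Csf1r (0.0788 ± 0.0445). In WT hippocampus it was Il34 (7.82 ± 0.813), Csf1 (6.51 ± 1.5), Csf2ra (6.37 ± 3.66), Csf2rb (0.296 ± 0.19), Csf1r (0.0586 ± 0.0356) and Csf3r (0.025 ± 0.0255). Among neighbours in these orders, the libraries of Csf1 and Csf2ra and those of Csf1r and Csf3r overlapped in both genotypes. Those of Il34 and Csf1, and of Csf2rb and Csf1r, overlapped as well in WT. So the ligands and the GM-CSF-binding chain lay well above the other 3 receptor genes in both genotypes.

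Csf1r was close to the limit of detection in every library, although CSF1R is a defining receptor of microglia. Its counts were 5, 5 and 2 in 5xFAD replicates 1 to 3, against 3, 2 and 6 in WT replicates 1 to 3. These 23 counts correspond to 0.455 ± 0.257 CPM in 5xFAD and 0.338 ± 0.206 CPM in WT (SD, n = 3 each), and the groups overlapped. The ratio of group totals, 12 counts in 5xFAD against 11 in WT, was 1.23 (exact 95% interval 0.498 to 3.08, counting error only). Differences inside this interval were not detectable at this depth.

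The low count of Csf1r was not shared by other microglial genes. All 11 microglial markers of a list that included P2ry12, Tmem119 and Cx3cr1 were measured in both genotypes. Per kilobase, the lowest of them, P2ry13 in 5xFAD and Olfml3 in WT, still exceeded Csf1r 41.4-fold in 5xFAD and 24.7-fold in WT. The highest, the fractalkine receptor gene Cx3cr1, exceeded it 655-fold in 5xFAD and 319-fold in WT. Csf1r lies on chromosome 18 (61100598 to 61132149, plus strand, GRCm38). Of its 5774 exonic bases, 873 (15.1%) overlap exons of Hmgxb3 on the opposite strand. Hmgxb3 had 51 counts in 5xFAD and 63 in WT, while Pdgfrb, the neighbouring gene of the same receptor family, had 1144 counts in 5xFAD and 1208 in WT. Whether this overlap or the counting of the authors has a part in the low value of Csf1r was not tested.

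**Figure D1:**
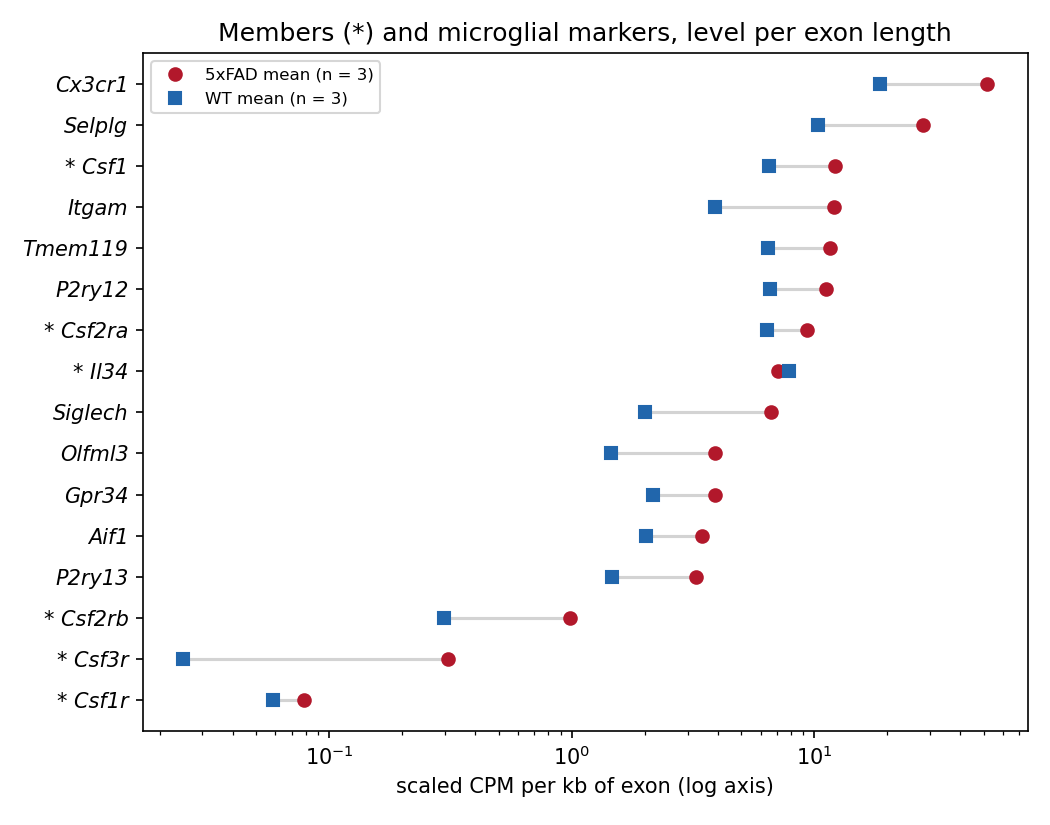
Mean scaled CPM per kb of exon (log axis) of the 6 members (marked *) and of 10 of the microglial markers in 5xFAD (circles) and WT (squares), n = 3 each. Csf1r is the lowest gene of the plot in 5xFAD, at 0.0788 CPM per kb, whereas Cx3cr1 reached 51.6 CPM per kb.

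The main comparison asked which members differed between genotypes. With all 6 libraries 0 members were called in either direction among the 4 that passed the filter on low counts (edgeR quasi-likelihood test, adjusted p under 0.05), where 0.656% of all 12952 genes tested were called. DESeq2 and limma-voom also called 0 of them. Without adjustment 2 of the 4, Csf1 and Csf2rb, passed the 0.05 threshold with higher values in 5xFAD, as did 4.52% of all genes tested. The same 2 members had no overlap between the groups with higher values in 5xFAD, a property of 8.42% of all genes tested. Csf1r and Csf3r did not pass the filter and are described by their counts.

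**Figure D2:**
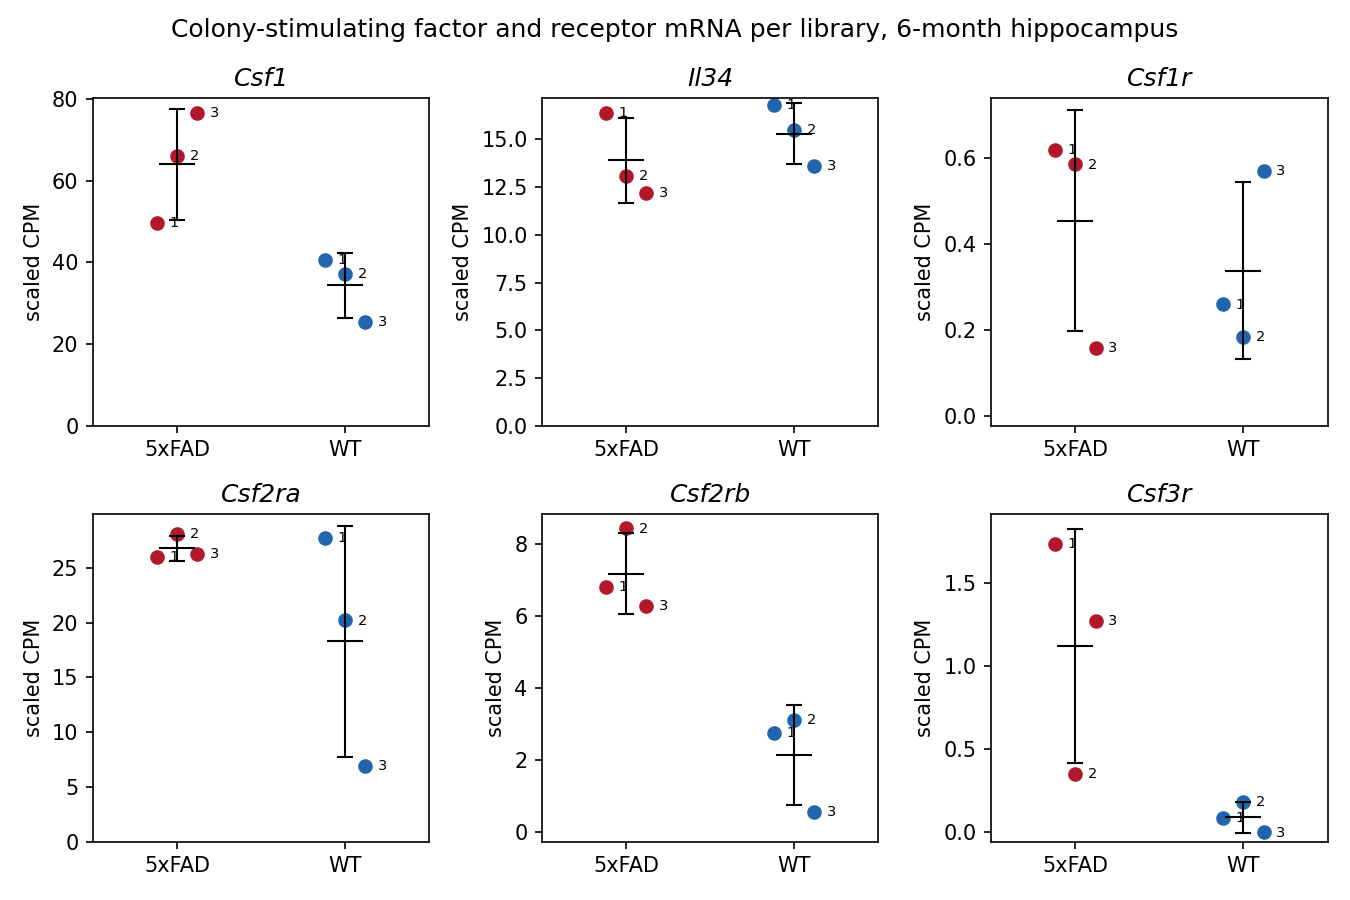
Scaled CPM of each member in every library, with 5xFAD at the left and WT at the right of each panel. Numbers beside points are replicates, and bars show the mean and SD (n = 3). The 5xFAD libraries of Csf1 (49.6 to 76.6 CPM) and Csf2rb (6.29 to 8.44 CPM) lay above all WT libraries, while those of Il34 and Csf1r overlapped with WT.

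Of the ligands, Csf1 had 49.6, 66.0 and 76.6 CPM in 5xFAD replicates 1 to 3, against 40.6, 37.1 and 25.4 CPM in WT replicates 1 to 3. All 5xFAD libraries were above all WT libraries, and the lowest value belonged to WT replicate 3. The log2 difference was 0.90 ± 0.244 (SE, 95% interval 0.35 to 1.45), a 1.86-fold higher mean that did not pass the adjusted threshold (edgeR adjusted p = 0.298). Without WT replicate 3 the difference was 0.73 ± 0.161 and passed (edgeR adjusted p = 0.017). In that fit, where Csf3r also passed the filter, Csf1 was the 1 member called of 5 tested, against 2.39% of all genes tested that were called higher. Csf1 is encoded on chromosome 3 (107741048 to 107760469, minus strand).

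Il34, the other CSF1R ligand gene (chromosome 8, 110741829 to 110805924, minus strand), showed no detectable difference. It had 16.4, 13.1 and 12.2 CPM in 5xFAD libraries, against 16.8, 15.5 and 13.6 CPM in WT libraries, with overlap between the groups. The log2 difference was -0.14 ± 0.233 (SE), and its 95% interval of -0.67 to 0.38 leaves room for a modest change either way (edgeR adjusted p = 0.891). On the opposite strand, annotated genes share 97 exonic bases (4.95%) with Il34, and their reads cannot be told apart from it where counting ignored strand.

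The balance of the ligands was examined within each library, where scaling of the library cancels. Per kilobase, Csf1 exceeded Il34 by 1.12, 1.86 and 2.33 times in 5xFAD replicates 1 to 3, against 0.897, 0.887 and 0.693 times in WT replicates 1 to 3. Per kilobase, Csf1 was thus above Il34 in every 5xFAD library and below it in every WT library. This order depends on the annotated exon lengths used, 5281 bases for Csf1 and 1959 for Il34. Several ratios were near 1, and by CPM Csf1 was above Il34 in every library. Which ligand mRNA was the more abundant is therefore uncertain, while the comparison of genotypes does not depend on these lengths. On the log2 scale of CPM the ratio of Csf1 to Il34 was 2.18 ± 0.536 in 5xFAD and 1.13 ± 0.21 in WT (SD, n = 3 each), a difference of 1.04. A two-sided exact permutation test gave p = 0.1, which is the smallest p that 3 against 3 libraries allow (adjusted p = 0.25 over 5 ratios). Leaving out any 1 library kept the difference between 0.82 and 1.34.

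The receptor Csf1r, by comparison, did not move detectably against either ligand. The log2 ratio of Csf1r to Csf1 was -6.7 ± 0.951 in 5xFAD and -6.06 ± 0.865 in WT (SD, n = 3 each; exact permutation p = 0.6, adjusted p = 0.6). That of Csf1r to Il34 was -4.53 ± 0.541 in 5xFAD and -4.93 ± 0.657 in WT (exact permutation p = 0.4, adjusted p = 0.5). With 2 to 6 counts of Csf1r per library, these ratios carry a large counting error.

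Of the GM-CSF receptor chains, Csf2rb had the larger difference. It had 6.81, 8.44 and 6.29 CPM in 5xFAD libraries, against 2.77, 3.12 and 0.572 CPM in WT libraries. The groups did not overlap, and WT replicate 3, with 6 counts, was again the lowest. The log2 difference was 1.72 ± 0.532 (SE, 95% interval 0.52 to 2.93), a 3.3-fold higher mean that did not pass (edgeR adjusted p = 0.415). Without WT replicate 3 it was 1.28 ± 0.342, just short of the threshold (edgeR adjusted p = 0.0529).

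Csf2rb has a close paralogue, Csf2rb2, which in mice encodes a beta chain specific to the interleukin 3 receptor. Both lie on chromosome 15 (Csf2rb 78325752 to 78353847, plus strand; Csf2rb2 78282507 to 78305721, minus strand), and how reads were divided between these similar genes is uncertain. Csf2rb2 had 4.34, 5.39 and 6.21 CPM in 5xFAD, against 2.94, 3.4 and 2.48 CPM in WT, without overlap (log2 difference 0.86 ± 0.342 SE, edgeR adjusted p = 0.712). With the counts of both genes summed, an alternative added after seeing the data, the difference was 1.29 ± 0.331 (edgeR adjusted p = 0.241).

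Csf2ra, on chromosome 19 (61223957 to 61228429, minus strand), varied mainly within WT. It had 26.0, 28.1 and 26.3 CPM in 5xFAD libraries, against 27.7, 20.2 and 6.95 CPM in WT libraries. The groups overlapped, since WT replicate 1 was as high as the 5xFAD libraries and only WT replicate 3 was far below. The log2 difference was 0.55 ± 0.416 (SE, 95% interval -0.39 to 1.49, edgeR adjusted p = 0.817). Without WT replicate 3 it was 0.17 ± 0.171 (95% interval -0.19 to 0.53).

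Within libraries, Csf2rb was higher relative to Csf2ra in 5xFAD. The log2 ratio of Csf2rb to Csf2ra was -1.9, -1.71 and -2.03 in 5xFAD replicates 1 to 3, against -3.23, -2.62 and -3.22 in WT replicates 1 to 3. With 6 counts of Csf2rb, the value of WT replicate 3 depended on the prior count of 2, and it was -3.5 with a prior count of 0.5, the lowest of the WT libraries (-3.3 and -2.68 in WT replicates 1 and 2). The difference was 1.14 (exact permutation p = 0.1, the smallest possible, adjusted p = 0.25), and it remained between 1.04 and 1.35 when any 1 library was left out.

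**Figure D3:**
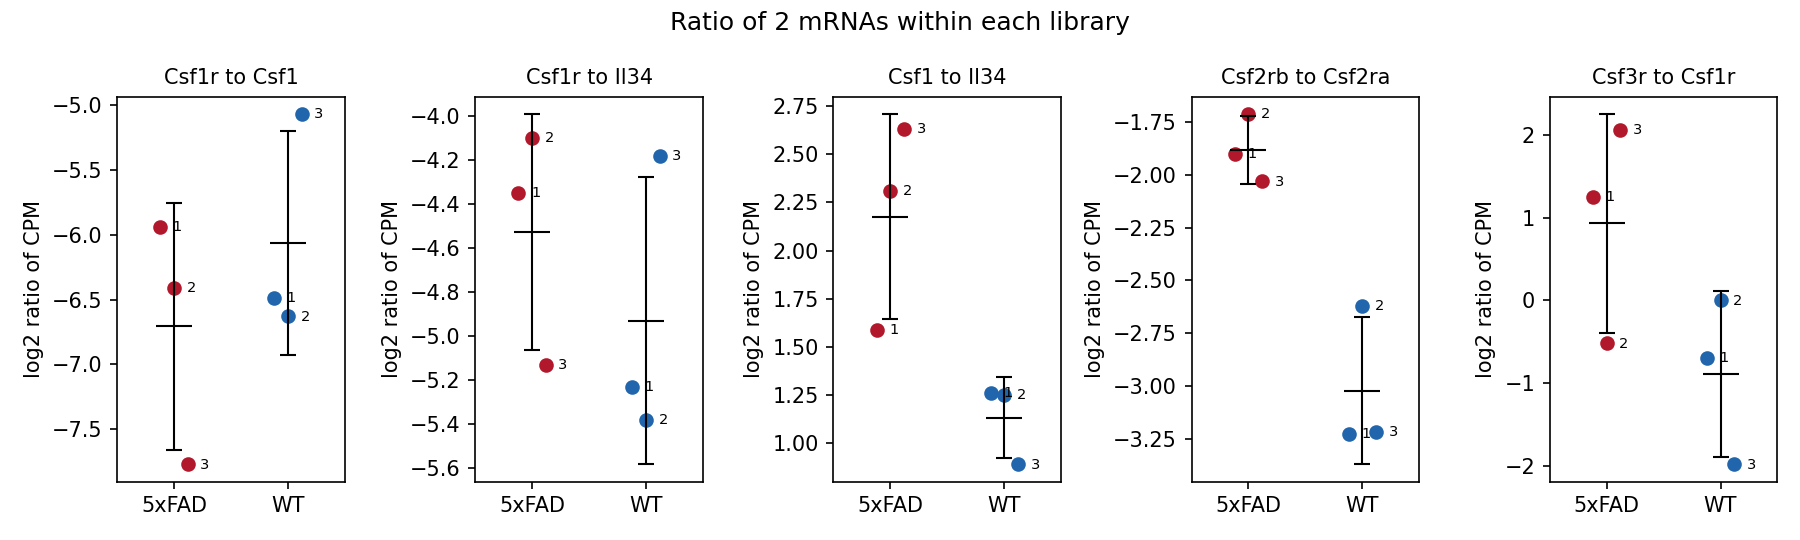
Log2 ratio of 2 mRNAs (CPM, prior count 2) in each library, with 5xFAD at the left and WT at the right, and bars for mean and SD (n = 3). The groups were separate for Csf1 to Il34 (means 2.18 in 5xFAD and 1.13 in WT) and for Csf2rb to Csf2ra (-1.88 and -3.03), and overlapped for the 3 ratios that include Csf1r.

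Csf3r (chromosome 4, 126024550 to 126044440, plus strand) was rare in both genotypes. It had 14, 3 and 16 counts in 5xFAD replicates 1 to 3, against 1, 2 and 0 counts in WT replicates 1 to 3. The 0 of WT replicate 3 allows up to 0.286 CPM. All 5xFAD libraries were above all WT libraries, but 5xFAD replicate 2, at 0.352 CPM, was closer to WT than to the other 5xFAD libraries. The ratio of group totals, 33 counts in 5xFAD against 3 in WT, was 12.4 (exact 95% interval 3.9 to 63.3), which covers counting error only. In the fit without a filter the log2 difference was 3.46 ± 1.13 (SE, edgeR adjusted p = 0.449). Without WT replicate 3, Csf3r passed the filter and was not called, with a log2 difference of 2.96 ± 1.11 (SE, edgeR adjusted p = 0.212).

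Markers of the cell type best known for Csf3r were nearly absent. Of 7 neutrophil markers in the table, 3 (S100a8, Ly6g and Retnlg) had 0 counts in all libraries, and the list summed to 0.557 to 2.23 CPM in 5xFAD and 0.519 to 0.643 CPM in WT. Most of these counts in 5xFAD came from Ngp, a neutrophil granule gene, with 17, 10 and 1 counts in 5xFAD replicates 1 to 3, against 4, 1 and 0 in WT replicates 1 to 3. Beside these, Csf3r had 14, 3 and 16 counts in 5xFAD replicates 1 to 3. Both genes were thus high in 5xFAD replicate 1, differed in replicates 2 and 3, and had at most 4 counts in any WT library. Whether neutrophils have a part in the counts of Csf3r was not tested. A count of 0 allows up to 0.239 to 0.372 CPM in the 5xFAD libraries and up to 0.26 to 0.286 CPM in the WT libraries.

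**Figure D4:**
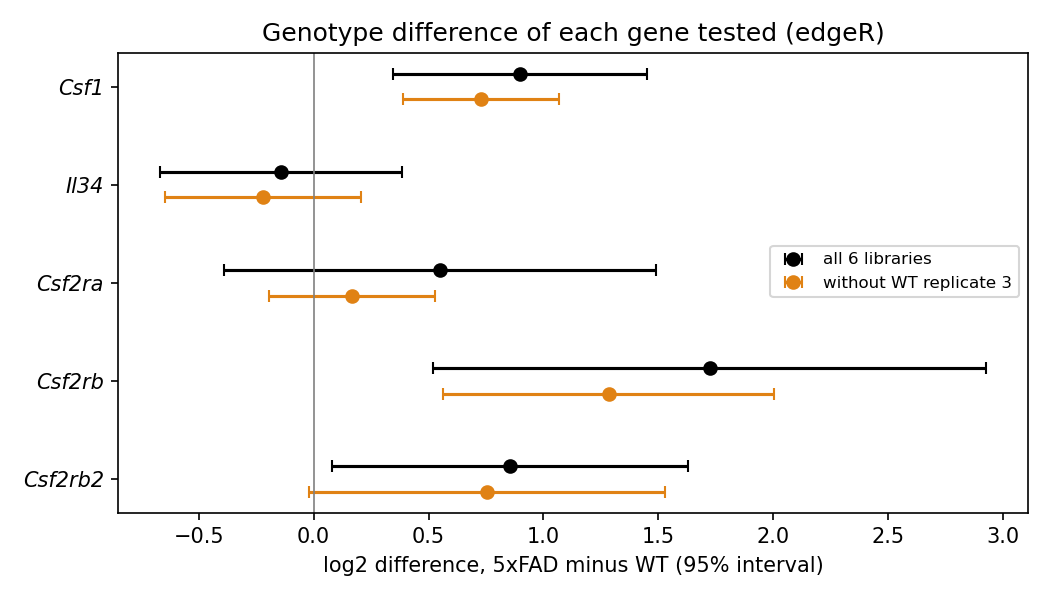
Log2 difference (5xFAD minus WT) with 95% interval for the members that passed the filter and for Csf2rb2, with all 6 libraries (black) and without WT replicate 3 (orange). Csf1 was at 0.90 and 0.73, Csf2rb at 1.72 and 1.28, and the intervals of Il34 and Csf2ra included 0 in both fits.

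The markers of several cell types were set beside the members. The 11 microglial markers summed to 582 to 658 CPM in 5xFAD libraries, against 173 to 287 CPM in WT libraries, with the lowest sum in WT replicate 3. Of these 11, only Itgam was called (log2 difference 1.62, edgeR adjusted p = 0.00755), and their median log2 difference was 1.25. The 5 astrocyte markers summed to 2140 to 2460 CPM in 5xFAD, against 904 to 1200 CPM in WT, again without overlap. Of these 5, Gfap, a filament gene of reactive astrocytes, was called (log2 difference 2.33, edgeR adjusted p = 0.00203), and the other 4 had differences of -0.09 to 0.38 and were not. The 7 lymphocyte markers summed to 0.703 to 1.86 CPM in 5xFAD and 0.346 to 0.667 CPM in WT. These sums did not overlap, but they rest on 37 counts in 5xFAD and 18 in WT. The sums of the following types overlapped between the groups. Perivascular macrophage markers summed to 5.98 to 13.6 CPM in 5xFAD and 7.01 to 14.9 CPM in WT, and neuronal markers to 4900 to 4920 CPM in 5xFAD and 4510 to 6080 CPM in WT. Oligodendrocyte markers summed to 2610 to 2950 CPM in 5xFAD and 1750 to 2660 CPM in WT. Choroid plexus markers summed to 697 to 4110 CPM in 5xFAD and 386 to 2170 CPM in WT, a wide spread within each group. The sums of monocyte, endothelial and hippocampal subfield markers overlapped as well. In bulk tissue, more cells of a type and more RNA per cell cannot be told apart. Per 1000 CPM of microglial markers, Csf2rb was at 10.4, 14.5 and 10.7 CPM in 5xFAD, against 10.9, 10.9 and 3.31 CPM in WT. Il34 was at 20.7 to 24.8 CPM on this scale in 5xFAD and at 54.1 to 78.8 CPM in WT, and Csf1 at 75.3 to 130 CPM in 5xFAD and 129 to 160 CPM in WT. On this scale Csf2rb in WT replicates 1 and 2 lay within its range in 5xFAD, and WT replicate 3 lay below it. Csf1 overlapped between the groups on this scale. Il34 lay lower in every 5xFAD library than in any WT library, although its own CPM overlapped between the groups. That separation follows from the marker sum used as divisor and does not show a change of Il34. The part of the microglial and astrocyte markers in the differences of the members was not tested.

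The longest transcripts of the members have a GC content of 53.9% to 57.8%. With a correction for GC content the log2 differences were 0.73 for Csf1 (edgeR adjusted p = 0.209), -0.39 for Il34 (0.726), 0.39 for Csf2ra (0.803) and 1.59 for Csf2rb (0.328). Directions were as before, and no member passed.

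The next comparison asked whether other genes of these pathways differed. Counts of each list are read against the 0.656% of all genes that were called, and its median against the median of all genes tested, -0.02. The list of other ligands and receptors named 9 genes, and no row was matched for Csf2 (the gene of GM-CSF), Il3 and Il5ra. Of the 6 genes matched, 3 passed the filter and 0 were called (edgeR), with a median of 0.855. At an unadjusted p of 0.05, 2 of the 3 were higher, as were 4.52% of all genes tested. Among other ligands and receptors, Csf3 and Il5, which encode the ligands of CSF3R and of the interleukin 5 receptor, had 0 counts in all libraries, with the same upper limits as above. Il3ra, the interleukin 3 binding chain and thus a partner of Csf2rb and Csf2rb2, had 8.8, 7.74 and 7.56 CPM in 5xFAD, against 6.06, 3.58 and 1.14 CPM in WT, and was not called (log2 difference 1.15, edgeR adjusted p = 0.792). Ptprz1, a receptor phosphatase of glia that also binds IL-34, was level at 266 to 285 CPM in 5xFAD and 270 to 273 CPM in WT (log2 difference 0.01, 95% interval -0.36 to 0.38).

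The other receptors of the CSF1R family and their ligands had a median log2 difference of 0.01 over 8 genes tested, and 0 were called (edgeR; 0 also at an unadjusted p of 0.05). These were Kit, Flt3, Pdgfra, Pdgfrb, Kitl, Flt3l, Pdgfa and Pdgfb. Kitl, which encodes the KIT ligand stem cell factor, had 2.73, 3.05 and 3.02 CPM in 5xFAD, against 2.77, 3.12 and 8.86 CPM in WT. Only WT replicate 3 was high (log2 difference -0.74 ± 0.497 SE, edgeR adjusted p = 0.811). Pdgfb, a platelet-derived growth factor gene, was at 30.5 to 33.1 CPM in 5xFAD and 15.1 to 29.8 CPM in WT (log2 difference 0.40 ± 0.272).

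Of 23 tested genes that act next to CSF1R in signalling, 3 rose and 0 fell, with a median of 0.31. Fes, a tyrosine kinase gene of myeloid cells, had 17.1, 20.0 and 16.8 CPM in 5xFAD, against 4.5, 4.04 and 2.19 CPM in WT (5-fold, edgeR adjusted p = 0.0141). Ptpn6, the gene of the phosphatase SHP-1, was 4.87-fold higher (edgeR adjusted p = 0.0353), and Inpp5d, the gene of the lipid phosphatase SHIP1, was 3.53-fold higher (0.00874). Both phosphatases are known to restrain receptor signalling in myeloid cells. Tyrobp, the adaptor DAP12, had 4.92 to 10.7 CPM in 5xFAD, against 0.184 to 1.91 CPM in WT, without overlap and without passing (edgeR adjusted p = 0.101). Plcg2, a phospholipase gene (0.118), and Syk, a tyrosine kinase gene (0.633), did not pass either. Widely expressed signalling genes had differences near 0, such as Grb2 at 0.07 and Akt1 at 0.09. Without WT replicate 3, 6 of the 23 were called higher, with a median of 0.14, where 2.39% of all genes tested were called higher.

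Of 13 JAK-STAT genes downstream of the GM-CSF and G-CSF receptors, 0 were called (edgeR), with a median of 0.19, and 3 were higher at an unadjusted p of 0.05, as were 4.52% of all genes tested. Stat5a, a transcription factor activated by CSF2RB, had 3.47, 5.86 and 4.54 CPM in 5xFAD, against 1.82, 0.827 and 1.52 CPM in WT (log2 difference 1.72 ± 0.448 SE, edgeR adjusted p = 0.254). Its paralogue Stat5b was at 26.0 to 29.1 CPM in 5xFAD and 22.0 to 31.1 CPM in WT (log2 difference 0.13). Stat3 (0.58 ± 0.184) was also among the 3, and it was called without WT replicate 3 (edgeR adjusted p = 0.00353). In that fit 2 of the 13 were called higher, against 2.39% of all genes tested. The differences of the list ran from -0.49 for the kinase gene Jak2 to 1.72 for Stat5a.

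Of 10 genes of transcription factors known to act on Csf1r, 2 rose and 0 fell. Their median log2 difference was 1.02, and 9 of the 10 had a difference above 0. Runx1 had 15.6, 16.2 and 21.8 CPM in 5xFAD, against 2.6, 4.22 and 3.33 CPM in WT (5.28-fold, edgeR adjusted p = 0.00874), and Irf8 was 7.18-fold higher (0.0134). Spi1, the gene of the macrophage factor PU.1, had 13.1, 14.7 and 16.8 CPM in 5xFAD, against 6.84, 4.96 and 1.71 CPM in WT, without overlap and without passing (edgeR adjusted p = 0.235). Cebpa, the gene of a myeloid factor, was not called (edgeR adjusted p = 0.254). Without WT replicate 3 the list had 5 genes called higher, against 2.39% of all genes tested, and a median of 0.73. Fes, Inpp5d, Runx1 and Irf8 lost their calls whichever 5xFAD replicate was left out, at adjusted p values of 0.0598 to 0.115 by edgeR. Ptpn6 lost its call in the same fits and in that without WT replicate 1 (0.124 to 0.246).

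**Figure D5:**
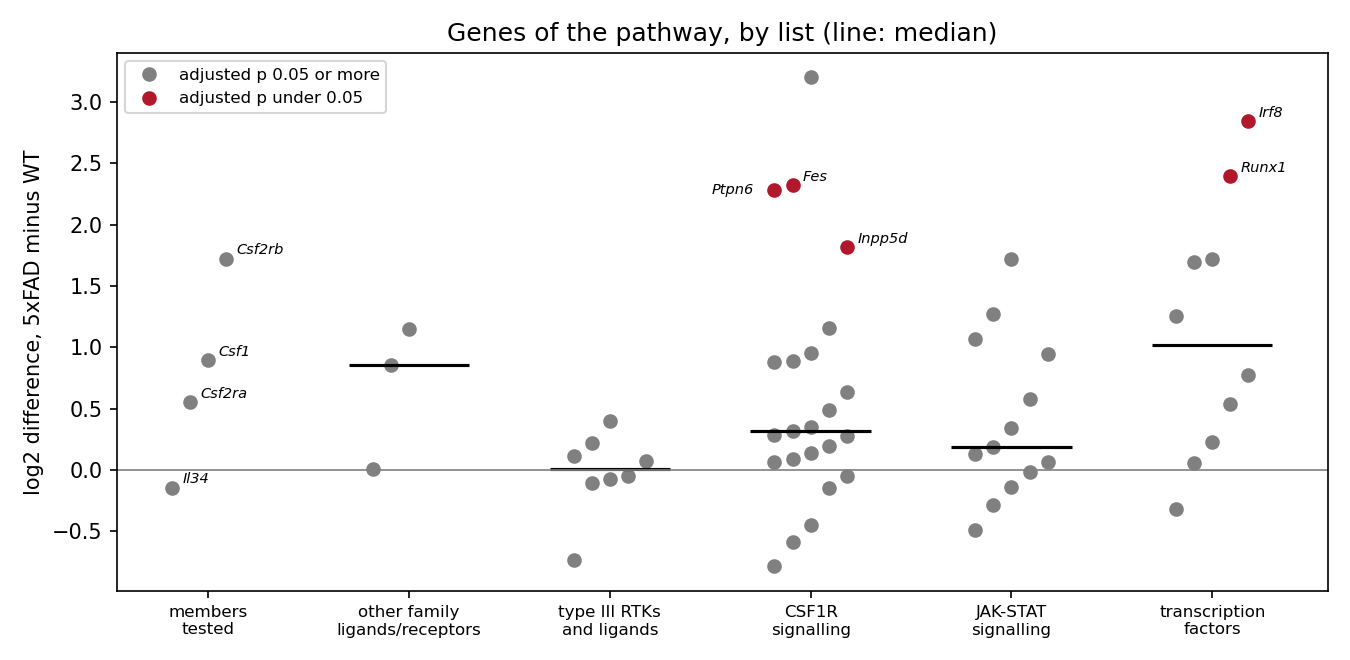
Log2 difference (5xFAD minus WT) of every tested member and of every tested gene in 5 pathway lists. Red points had an edgeR adjusted p under 0.05, and lines are list medians. The 5 called genes are Fes, Ptpn6, Inpp5d, Runx1 and Irf8, and the genes of the type III receptor tyrosine kinase (RTK) list lie around 0.01.

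PU.1 binds sites with the core GAGGAA, so this motif was searched on both strands of the promoters of the members, from 250 bases before to 50 after the start site given by RefSeq (GRCm38.p6). It was present in 28.3% of all 32851 promoters of this length. RefSeq promoters were matched for Csf1, Csf2ra, Csf3r and the paralogue Csf2rb2. The window of Csf1 had 0 matches, and no window held TATAAA. The 3 receptor genes searched had at least 1 match, shown here with 30 bases around it and the motif in capitals.
Csf2ra (chr19:61228412-61228441, minus strand, first match 14 bases before the RefSeq start): cctgcagatGAGGAAGAGGAAgcgggagac
Csf3r (chr4:126024561-126024590, plus strand, 86 bases before the RefSeq start): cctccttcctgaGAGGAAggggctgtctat
Csf2rb2 (chr15:78305871-78305900, minus strand, 167 bases before the RefSeq start, motif on the opposite strand): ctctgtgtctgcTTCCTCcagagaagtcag
Csf2ra holds the motif as a direct repeat, and Csf2rb2 has a second match 29 bases after its start. The 2 annotations differ for Csf2ra and Csf3r. The GENCODE gene of Csf2ra starts 11 bases upstream of the RefSeq start. Its first match begins 3 bases before the GENCODE start, and the repeat runs into the gene. The GENCODE gene of Csf3r starts 109 bases upstream of the RefSeq start, so that its match lies 23 bases inside the GENCODE gene. No GENCODE transcript of Csf3r began at the RefSeq start. A match describes letters only, and no binding was measured.

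Finally, the genes whose pattern over the 6 libraries was most like that of each tested member were identified by the root mean square (RMS) difference of centred log2 CPM. Nearest to Csf1 were Slc9b2, a sodium-proton exchanger gene (RMS 0.04), Ctsa, the gene of the lysosomal cathepsin A (0.07), and B4galt1, a galactosyltransferase gene (0.08). Ctsa had 126 ± 21.2 CPM in 5xFAD and 67.6 ± 16.8 CPM in WT (SD, n = 3 each). Nearest to Il34 were Pde1b, a phosphodiesterase gene (0.04), Neo1, a netrin receptor gene (0.06), and Nptn, a synaptic adhesion gene (0.06). Csf2ra was closest to Cand2, Sh2b2 and Micall1 (0.09 to 0.11). Csf2rb was less closely matched, with Mlxipl, a carbohydrate-responsive transcription factor gene (0.14), Tgfb1 (0.23) and Lyl1, a blood transcription factor gene (0.25). None of these 12 genes was called (edgeR adjusted p 0.22 to 0.917), and with 6 libraries the ranking is a description only.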

How the data were processed

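Hippocampal RNA of 3 5xFAD and 3 WT mice was sequenced as paired ends. The submitters' processing notes name cutadapt 1.9.3 for trimming, HISAT2 2.0.4 for alignment (mm10) and HTSeq 0.9.1 for counting per gene. Strand setting and annotation release of the counting: not given in the sources used here. The deposited table holds raw counts for all 6 libraries, and only these were used. A block of log2 values that the authors normalised with edgeR 3.16.5 was left aside. Exon lengths, positions and GC content came from GENCODE M21 (GRCm38).

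Genes were kept by filterByExpr of edgeR 4.0.16 (R 4.3.3, minimum count 10), which left 12952 of 18263 genes. Counts were scaled by TMM and compared by the quasi-likelihood F test of edgeR. P-values were adjusted by Benjamini-Hochberg over the 12952 genes, and genes under 0.05 were called. SE is the absolute log2 difference over the square root of F, so SE and intervals are approximate. Library ratios used log2 CPM with a prior count of 2 and a two-sided exact permutation test. Alternatives used DESeq2 1.42.0, limma 3.58.1, other scalings, no filter, a GC offset, a replicate block and each library left out. Pairs of libraries differed by a chi-square of at least 6.72 per degree of freedom, so none was a copy. The pipeline was tested on simulated data. Depth was 8.45 to 12.6 M counts, at which 1 count is worth 0.0796 to 0.124 CPM, and counting intervals cover counting error only. Named list genes are those called and up to 3 others of smallest p, beside a few added after their values were seen. These are Stat5b, Jak2, Grb2, Akt1, Csf3, Il5, Lyn, Fgr, Dok1, Dok2 and Sdc1 on the lists. They are also Ngp, S100a8, Ly6g and Retnlg among the neutrophil markers and Itgam among the microglial markers. Gfap among the astrocyte markers, and Hmgxb3 and Pdgfrb beside Csf1r, were added in the same way. Some genes of the lists are counted but not reported here by name. Members and lists were chosen with earlier results of these data known. P-values measure the spread between these 3 and 3 libraries.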

Additional observations from a re-analysis of the deposited data

How the results depend on the processing

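The number of genes called was 85 with all 6 libraries, 218 with DESeq2, 120 with a replicate block and 132 with a replicate block and GC offset. It lay between 15 and 387 when each library was left out, with 23, 16 and 15 without 5xFAD replicates 1, 2 and 3, 42 without WT replicate 1 and 387 without WT replicate 3. The log2 difference of Csf1 was 0.73 to 1.05 in these fits and passed only without WT replicate 3, and that of Csf2rb was 1.28 to 2.08, that of Csf2ra 0.17 to 0.98 and that of Il34 -0.28 to -0.06, none of which passed. The log2 ratio of group totals was 3.64 for Csf3r (3.08 to 4.64 with a library left out, the highest without WT replicate 2) and 0.30 for Csf1r (-0.01 to 0.89). No other alternative changed a direction or a call of a tested member. With the replicate block, the difference was 0.90 for Csf1 (edgeR adjusted p = 0.252) and 1.91 for Csf2rb (0.128). Libraries of the same number correlated by 0.094, 0.069 and 0.177 in their deviations, so the numbers were not taken as pairs, although each 5xFAD library correlated best with the WT library of its own number. The 2 to 6 counts of Csf1r and 0 to 16 of Csf3r per library limit any statement on them.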

Other observations

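Further genes known from myeloid cells on the list of CSF1R signalling were also too rare for the test. The Src-family kinase gene Fgr had 1.98, 0.117 and 1.99 CPM in 5xFAD replicates 1 to 3, against 0, 0.735 and 0 CPM in WT replicates 1 to 3. The adaptor genes Dok1 and Dok2 were between 0.124 and 2.58 CPM in 5xFAD and between 0 and 1.21 CPM in WT. 5xFAD replicate 2, the lowest 5xFAD library in Csf3r, was also the lowest of its group in Fgr, with 1 count. It was the highest of its group in Dok1 and Dok2, so these rare genes shared no order of libraries. Lyn, of the same kinase family as Fgr, passed the filter, with 7.43, 9.61 and 7.88 CPM in 5xFAD, against 4.24, 1.84 and 7.43 CPM in WT (edgeR adjusted p = 0.81, and 0.0425 without WT replicate 3). Syndecan-1 (Sdc1), which also binds IL-34, was at 0.703 to 1.19 CPM in 5xFAD and 0.184 to 0.606 CPM in WT.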
